A study of Homo sapiens with 6 samples.

Results

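The integrated stress response is described here in U266, a human multiple myeloma cell line, through 33 genes chosen by symbol out of 57820 gene rows: the 4 eIF2 kinases, eIF2alpha and the subunits of eIF2B, the eIF2alpha phosphatase cofactors, ATF4, and genes that ATF4 is known to induce. Poly-A RNA was sequenced from 3 control samples and from 3 samples transduced with the EF1A-C-MYC lentiviral vector, named for the constitutive EF1A promoter. Both groups carry the label myeloma; plasmacytoma and were grown in RPMI-1640 medium with fetal bovine serum, and the labels record no other treatment. The labels do not say whether the controls carry an empty vector, whether the MYC cells are a pool or a clone, or whether the samples of a group are separate cultures. The effects of transduction and of MYC therefore cannot be told apart here, and p-values measure only the spread between these samples, which may be technical. In bulk RNA, fewer cells that express a gene and less of its RNA per cell cannot be told apart.

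In this response, phosphorylation of eIF2alpha by a stress-activated kinase blocks eIF2B, the factor that reloads eIF2 with GTP, and general translation slows. The mRNA of ATF4 escapes this block through upstream open reading frames, and the ATF4 protein then induces genes of amino acid supply, redox balance and feedback. Plasma cells and myeloma cells, which secrete large amounts of immunoglobulin, are known for a high load on protein folding in the endoplasmic reticulum. Kinase activity, eIF2alpha phosphorylation, translation and protein levels were not measured, and every value below is an RNA level or a difference of RNA levels.

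Summed expected counts, RSEM's estimates of reads per gene, ran from 27139978 to 158667309 per library. MYC, the check of the labels, stood at 3.91, 4.16 and 4.51 CPM in control and 105, 110.3 and 92.1 CPM with MYC, with a log2 fold change of 4.60 ± 0.10 (SE, edgeR adjusted p = 9.71e-08) that matches the labels in 6 of 6 samples. The reads of the vector and those of the endogenous gene were not separated. Of 11 plasma cell markers, 10 had a mean of at least 1 CPM (counts scaled by library total and TMM factor), the exception being CD27. Their summed level was 12719.6 to 15879 CPM in control and 6910.2 to 9272 CPM with MYC. Of 6 T and NK cell markers 3 reached 1 CPM, of 5 B cell markers 2, of 6 myeloid markers 1, of 6 stromal markers 2 and of 5 epithelial markers 2, and only LUM of these lists was at 0 counts in every library. The sums were 14.5 to 16.2 CPM in control and 7.08 to 9.57 CPM with MYC for B cell markers, 9.33 to 12.0 and 14.5 to 16.1 CPM for T and NK cell markers, and 3.83 to 4.63 and 6.64 to 7.70 CPM for epithelial markers, while the groups overlapped for the myeloid and stromal lists. The part of these lists, the plasma cell list included, in the results below was not tested. Fold changes over all genes followed the GC content of transcripts. For the 2300 tested genes with at least 60% GC, the median deviation from the gene's mean log2 CPM was 0.46, 0.60 and 0.51 for control replicates 1 to 3 and -0.32, -0.48 and -0.75 for MYC replicates 1 to 3. Where it matters, a result is therefore given from the fit with the group only and from a second fit that removes each library's trend on GC content (the GC offset).

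Many ATF4 targets carry a C/EBP-ATF response element, a composite site for ATF4 and a C/EBP partner. RefSeq promoters (GRCh38.p14, 250 bases before to 50 after each annotated start) held 29 of the 33 members, all except EIF2AK1, EIF4EBP1, NUPR1 and VEGFA. They were searched on both strands for the core TGATGNAA, for the E-box CACGTG that MYC and MAX bind, and for the cyclic AMP response element TGACGTCA. No member held more than 1 of the 3. The core was present in 5 of the 29 members (17.2%), against 4.46% of 27305 genes with a promoter and 2.93% of the 11680 of these that were tested for expression. All 5 belong to the ATF4 arm. With MYC, 4 of these 5 were called lower, and so were 12 of the 15 members of that arm whose promoter had no core, both in the fit with the group only and after the correction for GC content. The core member not called was PPP1R15B in the former fit and CHAC1 in the latter. For comparison, 32.1% of all genes tested were called lower in the former fit and 28.9% in the latter. These shares were not split by presence of the core. The matches are shown with up to 30 bases on each side and with the core in capitals. Windows are cut at the start site (JDP2) or at the far edge of the promoter (PPP1R15B).
ASNS: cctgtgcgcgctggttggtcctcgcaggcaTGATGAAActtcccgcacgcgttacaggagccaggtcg
CEBPG: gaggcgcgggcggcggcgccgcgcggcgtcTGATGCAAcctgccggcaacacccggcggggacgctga
CHAC1: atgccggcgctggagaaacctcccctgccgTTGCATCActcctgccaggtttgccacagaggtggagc
JDP2: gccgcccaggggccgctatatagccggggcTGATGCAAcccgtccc
PPP1R15B: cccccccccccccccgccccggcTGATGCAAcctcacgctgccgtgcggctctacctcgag
These windows lie at chr7:97872439-97872506 (ASNS, minus strand, 68 bases before the start), chr19:33374041-33374108 (CEBPG, plus strand, 42 bases), chr15:40953232-40953299 (CHAC1, plus strand, 209 bases, core on the opposite strand), chr14:75427976-75428021 (JDP2, plus strand, 16 bases) and chr1:204412007-204412067 (PPP1R15B, minus strand, 227 bases). PPP1R15A, whose RNA fell the most after the GC offset, held a cyclic AMP response element 58 bases before its start (chr19:48872333-48872400, plus strand), which 2.25% of all genes with a promoter and 3.70% of the tested ones had.
PPP1R15A: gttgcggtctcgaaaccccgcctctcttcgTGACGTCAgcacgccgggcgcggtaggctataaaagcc
The E-box was present in 3 of the 29 members (10.3%), against 8.77% of all genes with a promoter and 12.3% of the tested ones. These were ATF4 (chr22:39520447-39520512, plus strand, 82 bases), the kinase gene EIF2AK2 (chr2:37157126-37157191, minus strand, 181 bases) and the eIF2B subunit gene EIF2B3 (chr1:44986739-44986804, minus strand, 179 bases). EIF2AK2 and EIF2B3 were called higher with MYC in the fit with the group only, where 28.8% of all genes tested were. After the GC offset only EIF2B3 was, where 29.6% of all genes tested were. ATF4 was called in neither fit.
ATF4: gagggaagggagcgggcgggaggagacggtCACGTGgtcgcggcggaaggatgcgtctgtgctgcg
EIF2AK2: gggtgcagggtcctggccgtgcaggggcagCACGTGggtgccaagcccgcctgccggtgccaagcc
EIF2B3: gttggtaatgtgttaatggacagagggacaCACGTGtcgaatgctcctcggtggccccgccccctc
A match describes the letters in this window only.

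Of the 33 members, 32 passed the filter on low counts. With MYC, 19 of these 32 were lower and 6 higher at an adjusted p under 0.05 (edgeR), where 32.1% of all 17679 genes tested were lower and 28.8% higher. The upstream and the downstream part of the pathway are given apart, and the difference between them was not tested. Among the 10 genes of eIF2 kinases, eIF2alpha and eIF2B, 6 rose, 1 fell and 3 were not called. Of the 22 tested genes of the ATF4 arm (the phosphatase cofactors, the transcription factors and the targets), 18 were called lower and 4 were not called. The median log2 fold change was 0.19 for the kinases, 0.46 for eIF2alpha and eIF2B, and -1.07 for the ATF4 arm, against -0.02 over all genes tested. After the GC offset, 19 members were lower and 5 higher, against 28.9% and 29.6% of all genes, and 16 of the 19 members lower in the first fit were lower in both. Both fits use the same libraries, and the share of all genes lower in both was not computed. CEBPB, CHAC1 and ADM2 lost the call, and PPP1R15B, XPOT and KLHL24 gained it. The medians moved to -0.04 for the kinases, 0.29 for eIF2alpha and eIF2B, and -0.64 for the ATF4 arm. By at least 2-fold, 12 members, all in the ATF4 arm, were called lower in the group-only fit, where 12.4% of all genes were. After the GC offset 3 were (PPP1R15A, SLC6A9 and DDIT3), where 4.68% of all genes were. The CPM of all 3 MYC libraries lay below all 3 controls for 20 members and above them for 7, against 35.1% and 32.1% of all genes tested.

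**Figure D1:**
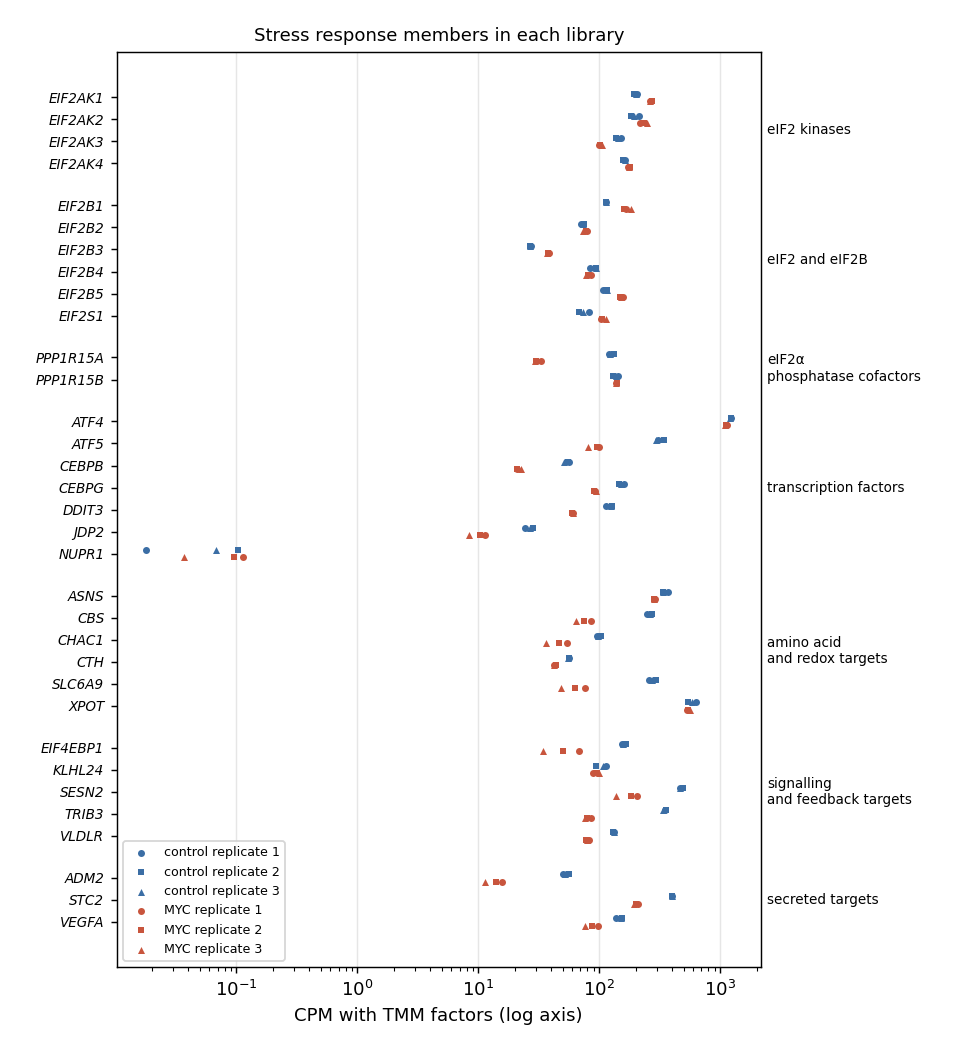
Each row is 1 member, and the x axis gives its CPM with TMM factors on a log axis; blue points are the 3 control libraries, red points the 3 MYC libraries, and the marker shape is the replicate. The red points lie to the left of the blue ones for 20 members, most of them in the ATF4 arm, and to the right for 7, and NUPR1 is near 0.1 CPM in both groups.

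The 4 eIF2 kinases each sense a different stress, and their transcripts went different ways. EIF2AK3, which encodes PERK, the sensor of misfolded protein in the endoplasmic reticulum, stood at 151, 138 and 143 CPM in control and 99.6, 102 and 106 CPM with MYC. All MYC libraries were below all controls, and its log2 fold change was -0.49 ± 0.06 (SE, edgeR adjusted p = 0.000133). With the GC offset the fall was larger, at -0.72 ± 0.03 (edgeR adjusted p = 3.06e-07). EIF2AK1, which encodes HRI, the kinase that senses heme shortage and mitochondrial stress, stood at 207, 195 and 200.1 CPM in control and 264, 275 and 265 CPM with MYC. It rose without overlap between the groups, with a log2 fold change of 0.42 ± 0.05 (SE, edgeR adjusted p = 0.000185), and of 0.27 ± 0.03 (edgeR adjusted p = 0.000171) after the GC offset. These were the only kinases called the same way in both fits.

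EIF2AK2, which encodes PKR, the interferon-induced sensor of double-stranded RNA, stood at 215, 182 and 194 CPM in control and 218, 233 and 248 CPM with MYC. The lowest MYC library was close to the highest control, and the log2 fold change was 0.25 ± 0.08 (SE, edgeR adjusted p = 0.0215). This call ended after the GC offset, at 0.00 ± 0.04 (edgeR adjusted p = 0.931), and on leaving out control replicate 2 or 3 or MYC replicate 2 (edgeR adjusted p = 0.092, 0.0804 and 0.0643), and on log2(TPM + 1) (limma adjusted p = 0.0899). EIF2AK4, which encodes GCN2, the sensor of uncharged tRNA, had 161.6 ± 3.98 CPM in control and 176 ± 2.80 CPM with MYC (SD, n = 3 each). Its groups did not overlap, yet its log2 fold change of 0.13 ± 0.05 (SE, edgeR adjusted p = 0.0541) did not pass the test, and after the GC offset it was -0.08. Of the 23 alternatives, 4 called it higher (RLE factors, DESeq2, a mean CPM of at least 5 and the length offset) and 1 called it lower (the GC offset without control replicate 1), so its direction is not stated.

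Deposited TPM values, which take a transcript's length and the library's depth into account, allow levels of different genes to be set side by side. Summed over the 4 kinases, control libraries held 232.2, 202.4 and 219.1 TPM and MYC libraries 216.3, 234.4 and 256.8 TPM, so that the groups overlapped. PERK's share of that sum was 26.3, 27.04 and 26.5% in control and 16.8, 16.9 and 18.1% with MYC. HRI's share was 30.8, 31.4 and 31.4% in control and 38.4, 37.9 and 36.2% with MYC. GCN2 held 23.1 ± 0.449% and 24.3 ± 0.387% and PKR 19.0 ± 0.748% and 21.0 ± 0.767% (SD, n = 3 each). EIF2AK3 was thus second of the 4 in control and last with MYC. These shares do not depend on library scaling, and they were not corrected for GC content: EIF2AK3 has 41.7% GC and EIF2AK1 47.8%.

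**Figure D2:**
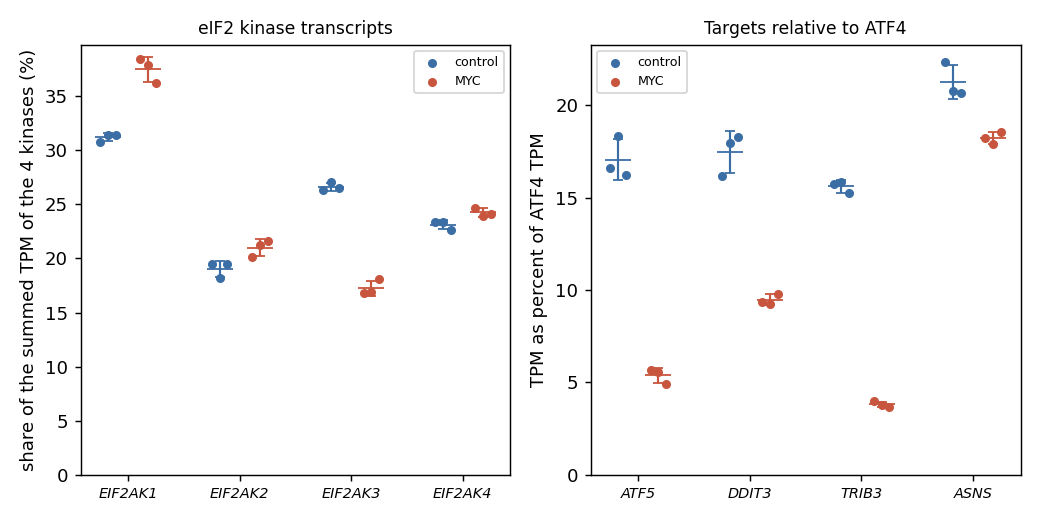
Left, each eIF2 kinase gene as a share (%) of the summed TPM of the 4 kinase genes; right, the TPM of ATF5, DDIT3, TRIB3 and ASNS as a percent of ATF4 TPM in the same library. Points are libraries (blue control, red MYC), dashes and bars the mean ± SD of 3; the EIF2AK3 share falls from 26.6 to 17.2% and the EIF2AK1 share is above all controls in each MYC library, while the 4 genes on the right are lower relative to ATF4 in every MYC library.

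The substrate of these kinases and the factor it blocks were called higher or not called. EIF2S1, which encodes eIF2alpha, stood at 81.6, 67.7 and 73.2 CPM in control and 103, 105 and 114 CPM with MYC. Every MYC library was above every control, with a log2 fold change of 0.53 ± 0.08 (SE, edgeR adjusted p = 0.000478), or 0.28 ± 0.03 (edgeR adjusted p = 0.000126) after the GC offset. In eIF2B, the regulatory subunit gene EIF2B1 stood at 114, 113 and 114 CPM in control and 166, 159.7 and 183 CPM with MYC. It rose 1.49-fold (edgeR adjusted p = 9.3e-05) and 1.43-fold after the GC offset. The catalytic subunit genes EIF2B3 and EIF2B5 rose 1.40-fold and 1.35-fold (edgeR adjusted p = 0.000123 and 0.000224), and 1.23-fold and 1.31-fold after the offset. The other regulatory subunits were not called: EIF2B2 had 72.9 ± 2.59 and 76.8 ± 3.21 CPM, and EIF2B4 had 91.2 ± 5.87 and 81.5 ± 3.32 CPM, with log2 fold changes of 0.08 and -0.16 and overlapping groups. Per length, the eIF2B genes other than EIF2B3 lay between 71.5 and 90.3 TPM in control, and EIF2B3 was at 26.6 TPM. With MYC, EIF2B1 was the highest of the 5 genes, at 106 ± 14.2 TPM (SD, n = 3).

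Dephosphorylation of eIF2alpha depends on a cofactor that brings protein phosphatase 1 to it, and the inducible and the constitutive cofactor were measured apart. PPP1R15A, which encodes the inducible cofactor GADD34, itself a product of this response, stood at 121, 132 and 124 CPM in control and 32.8, 30.2 and 29.4 CPM with MYC. The groups were far apart, with a log2 fold change of -2.03 ± 0.07 (SE, edgeR adjusted p = 3.19e-07), and of -1.55 ± 0.04 (edgeR adjusted p = 3.82e-08) after the GC offset, the steepest fall of any member in that fit. PPP1R15B, which encodes the constitutive cofactor CReP, stood at 143, 129 and 137 CPM in control and 136, 141 and 137 CPM with MYC. Its groups overlapped, and its log2 fold change was 0.02 ± 0.06 (SE, edgeR adjusted p = 0.792), though after the offset it was called lower, at -0.19 ± 0.04 (edgeR adjusted p = 0.00221). In TPM, PPP1R15A was at 196.5, 237.1 and 210.6% of PPP1R15B in control and at 56.4, 49.9 and 50.3% with MYC. By TPM, which is not corrected for GC content, the inducible cofactor's transcript was above the constitutive one in 3 of 3 controls and below it in 3 of 3 MYC libraries. PPP1R15A has 57.7% and PPP1R15B 43.4% GC, and the log2 fold change of PPP1R15A minus that of PPP1R15B was -2.05 in the group-only fit and -1.36 after the GC offset.

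ATF4 is the most abundant member by length-scaled level, with 1309 ± 42.0 TPM in control and 1172 ± 27.0 TPM with MYC (SD, n = 3 each), and the next, EIF4EBP1, had 376 TPM in control. In CPM it stood at 1222, 1234 and 1211 CPM in control and 1138, 1125 and 1086 CPM with MYC. The groups did not overlap, but the difference was small and did not pass the test, with a log2 fold change of -0.13 ± 0.06 (SE, edgeR adjusted p = 0.0707). The GC offset turned its sign, to 0.10 ± 0.05 (edgeR adjusted p = 0.143), which leaves ATF4 without a stated direction. Over all 23 alternatives its adjusted p ran from 0.0336 to 0.404 and its log2 fold change from -0.16 to 0.13. It was called lower in 3 of them: on total counts, at a mean CPM of at least 5 and without control replicate 1.

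Of the 6 tested transcription factors, ATF4 included, 5 were called lower in the group-only fit and 4 after the GC offset. The shares of all genes tested were 32.1% and 28.9%. DDIT3, which encodes CHOP, a factor linked to cell death after unresolved stress, stood at 113, 128 and 126 CPM in control and 60.3, 59.4 and 60.6 CPM with MYC. MYC libraries were all below the controls and near one another, and the log2 fold change was -1.02 ± 0.06 (SE, edgeR adjusted p = 6.22e-06), almost the same after the GC offset, at -1.09 ± 0.05 (edgeR adjusted p = 3.55e-07). CEBPG, a C/EBP family protein that pairs with ATF4 and whose promoter holds the core shown above, stood at 159, 147 and 152 CPM in control and 92.3, 90.3 and 93.3 CPM with MYC. It fell by 1.66-fold (edgeR adjusted p = 1.55e-05) and by 1.95-fold after the offset (edgeR adjusted p = 1.66e-07). ATF5, a relative of ATF4 that is also controlled by upstream reading frames, stood at 307, 341 and 297 CPM in control and 98.7, 95.8 and 81.0 CPM with MYC. Its fall of 3.43-fold (edgeR adjusted p = 2.48e-06) was 1.65-fold after the GC offset (edgeR adjusted p = 4.06e-06), and its transcripts have 62.3% GC.

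JDP2, a repressor of the AP-1 family, fell from 26.7 ± 2.04 to 9.98 ± 1.5 CPM (SD, n = 3 each), 2.69-fold, and 1.5-fold after the offset (edgeR adjusted p = 2.3e-05 and 1.64e-05). CEBPB, a C/EBP factor of inflammation and stress, stood at 55.9, 55.4 and 51.0 CPM in control and 20.8, 20.8 and 22.5 CPM with MYC. It was called lower in the group-only fit, at -1.34 ± 0.07 (SE, edgeR adjusted p = 2.47e-06), while the GC offset turned its sign, to 0.27 ± 0.15 (edgeR adjusted p = 0.144). Its transcripts have 66.2% GC, and its direction is not stated. NUPR1, a stress-induced chromatin protein, was not tested: its expected counts ran from 1 to 15 per library, at 0.0632 CPM on average in control and 0.0822 CPM with MYC.

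**Figure D3:**
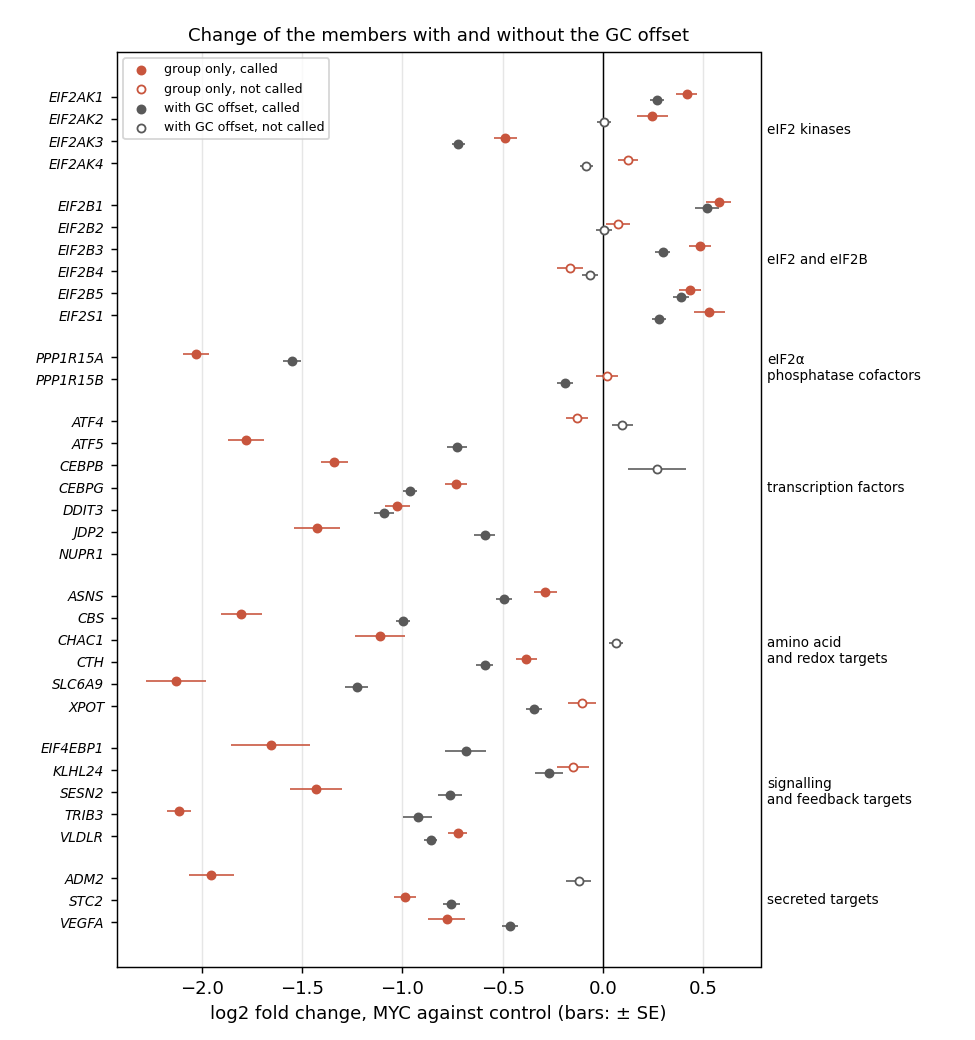
Log2 fold change of MYC against control for the 32 tested members (x axis), with bars of ± SE, from the fit with the group only (red) and after the GC offset (grey); filled points were called at an adjusted p under 0.05. The kinases and eIF2B lie on both sides of 0 or above it, and the ATF4 arm lies below it except PPP1R15B, at 0.02 in the group-only fit, with the CEBPB, CHAC1, ADM2 and ATF4 values near or above 0 once the offset is applied.

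Of 6 targets that serve amino acid supply and redox balance, 5 were called lower in the group-only fit, by unequal amounts. In that fit 32.1% of all genes tested were called lower. SLC6A9, which encodes the glycine transporter GLYT1, stood at 258, 292 and 272 CPM in control and 76.7, 63.6 and 48.4 CPM with MYC. It had the largest change of any member in the group-only fit, -2.13 ± 0.15 (SE, edgeR adjusted p = 1.13e-05), and after the GC offset it was -1.23 ± 0.06 (edgeR adjusted p = 4.73e-07). CBS, the first enzyme of transsulfuration, which makes cysteine from homocysteine, stood at 247, 274 and 263 CPM in control and 86.3, 74.5 and 64.5 CPM with MYC. It fell 3.49-fold (edgeR adjusted p = 4.22e-06) and 1.99-fold after the offset (edgeR adjusted p = 9.77e-08). CTH, the next enzyme of that route, stood at 56.4, 55.9 and 55.5 CPM in control and 42.6, 43.8 and 42.4 CPM with MYC. Its smaller fall, 1.30-fold (edgeR adjusted p = 0.000322), was 1.5-fold after the offset.

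ASNS, asparagine synthetase, a classical ATF4 target, stood at 369.9, 336 and 335 CPM in control and 289, 282 and 283 CPM with MYC. All MYC libraries lay below all controls, yet its fall was the smallest of those called in the group-only fit, with a log2 fold change of -0.29 ± 0.06 (SE, edgeR adjusted p = 0.00286), or -0.49 ± 0.04 (edgeR adjusted p = 1.38e-05) after the offset. CHAC1, which breaks down glutathione, stood at 96.1, 103 and 97.0 CPM in control and 54.1, 46.7 and 36.5 CPM with MYC. It was called lower in the group-only fit, -1.11 ± 0.12 (SE, edgeR adjusted p = 0.000106), but this call ended after the GC offset, 0.06 ± 0.04 (edgeR adjusted p = 0.154), which leaves its direction unstated. XPOT, which exports tRNA from the nucleus, had overlapping groups, 584 ± 43.5 and 542 ± 17.0 CPM (SD, n = 3 each). Its log2 fold change of -0.11 was not called in the group-only fit (edgeR adjusted p = 0.212) and was called lower after the offset, at -0.34 ± 0.04 (edgeR adjusted p = 8.19e-05).

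Of the feedback and signalling targets, TRIB3, SESN2 and EIF4EBP1 restrain growth signals or the response itself. TRIB3, a pseudokinase that binds ATF4 and AKT, stood at 349, 354 and 338 CPM in control and 85.2, 79.9 and 75.6 CPM with MYC, with the groups far apart. Its log2 fold change of -2.11 was -0.92 after the GC offset (edgeR adjusted p = 2.43e-07 and 8.13e-06). SESN2, a leucine-responsive inhibitor of mTORC1, stood at 466, 497 and 465 CPM in control and 206, 185 and 139 CPM with MYC. It fell 2.70-fold (edgeR adjusted p = 3.82e-05) and 1.70-fold after the offset. EIF4EBP1, the repressor of cap-dependent translation 4E-BP1, stood at 154, 166 and 157 CPM in control and 67.4, 50.2 and 34.6 CPM with MYC. Its MYC libraries were spread, the lowest being replicate 3, and it fell 3.15-fold (edgeR adjusted p = 0.000152), or 1.61-fold after the offset (edgeR adjusted p = 0.000417).

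VLDLR, a lipoprotein receptor induced by ATF4, stood at 133, 131 and 132 CPM in control and 82.1, 78.2 and 79.6 CPM with MYC. The replicates of each group were close together, and its log2 fold change was -0.73 ± 0.05 (SE, edgeR adjusted p = 1.08e-05), or -0.86 ± 0.03 (edgeR adjusted p = 1.95e-07) after the offset. KLHL24, an adaptor of a cullin ubiquitin ligase, had 105.0 ± 9.82 and 94.5 ± 6.21 CPM (SD, n = 3 each) and was not called, at -0.15 ± 0.08 (SE, edgeR adjusted p = 0.14). It was called lower in 12 of 23 alternatives, among them the GC offset (-0.27), log2(TPM + 1) (-0.37), the effective length offset (-0.33) and the fit without control replicate 2 (-0.23).

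The 3 secreted products were called lower in the group-only fit, as were 32.1% of all genes tested. STC2, stanniocalcin 2, stood at 401, 396 and 399.6 CPM in control and 209, 202 and 192 CPM with MYC. Its groups lay far apart, with a log2 fold change of -0.99 ± 0.05 (SE, edgeR adjusted p = 3.88e-06), or -0.76 ± 0.04 (edgeR adjusted p = 1.39e-06) after the offset. VEGFA, the vascular growth factor, had 149 ± 8.86 and 86.9 ± 11.1 CPM (SD, n = 3 each) and fell 1.72-fold, or 1.38-fold after the offset (edgeR adjusted p = 0.000157 and 1.81e-05). ADM2, the peptide adrenomedullin 2, had 53.0 ± 2.94 and 13.8 ± 2.19 CPM and was called lower, at -1.95 ± 0.11 (SE, edgeR adjusted p = 4.39e-06). Its transcripts have the highest GC content of the members, 68.2%, and the call ended after the offset, -0.12 ± 0.06 (edgeR adjusted p = 0.124).

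Set against ATF4 in the same library, 4 chosen genes of the ATF4 arm were lower with MYC in TPM. Library scaling does not change this ratio. All 4 were called lower in both fits, so lower ratios largely follow from that choice. No other member of the arm was set against ATF4 in this way. In the group-only fit, PPP1R15B (0.02) and XPOT (-0.11) had log2 fold changes above that of ATF4 (-0.13). TRIB3 was at 15.8, 15.8 and 15.2% of the ATF4 level in TPM in control and at 3.98, 3.77 and 3.69% with MYC. DDIT3 was at 16.2, 18.0 and 18.3% in control and at 9.36, 9.24 and 9.80% with MYC. ATF5 moved from 17.1 ± 1.11% to 5.39 ± 0.418% (SD, n = 3 each). ASNS moved least of these 4, from 22.3, 20.8 and 20.7% to 18.2, 17.9 and 18.5%. None of these ratios overlapped between the groups. In CPM, not as a ratio, all MYC libraries lay below all controls for 35.1% of all genes tested. DDIT3 has 50.3% and ASNS 45.4% GC, both below the 55.1% of ATF4, while TRIB3 and ATF5 have 63.2% and 62.3%.

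GC content and log2 fold change were correlated among the members, as among all genes. Over the 32 tested members, Spearman's rho between GC content and log2 fold change was -0.74 without the offset and -0.20 with it; over the 17202 genes with a GC value it was -0.56 and -0.01. These are descriptions over genes that share the same 6 libraries. Every member with 55% GC or more is in the ATF4 arm, while the kinase, eIF2alpha and eIF2B genes have 40.0 to 53.4% GC. Role and GC content are therefore partly confounded among the members. The 6 members called lower with less than 55% GC (EIF2AK3, DDIT3, CEBPG, ASNS, CTH and VLDLR) had a median log2 fold change of -0.61, and of -0.79 after the offset, and 6 of 6 were lower in both fits. The 13 called lower with 55% GC or more had a median of -1.66, and of -0.73 after the offset, and 10 of 13 were lower in both. Both sets were chosen as called lower in these same libraries, so calls in both fits are not separate support. Of all genes tested, those under 45% GC had a median log2 fold change of 0.23 in the group-only fit. Removing the trend lowers the values of such genes by construction. MYC replicate 3, the library with the lowest level of genes of high GC, was the lowest of the MYC libraries in 12 of these 13 and in 1 of the 6. Without MYC replicate 3, 19 members were still called lower, and the median of the ATF4 arm moved from -1.07 to -1.0, and from -0.64 to -0.57 after the GC offset.

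**Figure D4:**
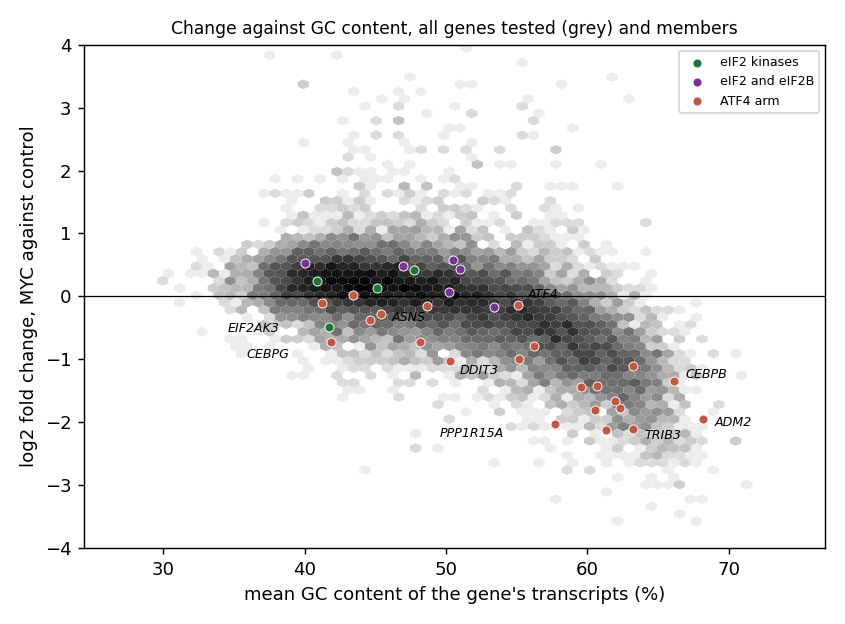
Log2 fold change of MYC against control (y axis) against the mean GC content of a gene's transcripts (x axis, %): grey hexagons count the genes tested on a log scale, and coloured points are the 32 tested members. The grey cloud bends down at high GC, above about 60%, and most of the ATF4 arm lies below its dense centre, DDIT3, CEBPG and the kinase gene EIF2AK3 doing so at lower GC; 159 genes beyond a log2 fold change of 4 in size are not drawn.

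Other genes of the pathway were counted from 6 further lists of 77 symbols, of which 76 matched a gene row and 71 were tested. Of these, 43 were lower and 13 higher in the group-only fit, where 32.1% and 28.8% of all genes were. After the GC offset the counts were 49 and 10, against 28.9% and 29.6% of all genes. Among 14 upstream regulators, 8 rose and 2 fell, and 6 and 3 after the offset. EIF2S3, the gamma subunit of eIF2, rose 1.36-fold, EIF2A, an alternative initiation factor, 1.39-fold and OMA1, a mitochondrial protease upstream of HRI, 1.35-fold (edgeR adjusted p = 0.000244, 0.000372 and 0.00225), and 1.16-fold, 1.17-fold and 1.14-fold after the offset. DELE1, which carries the mitochondrial signal to HRI, had 51.2 ± 0.814 and 40.3 ± 6.42 CPM (SD, n = 3 each) and fell 1.28-fold (edgeR adjusted p = 0.0165), or 1.23-fold after the offset. Of 5 tested partner factors 3 fell. ATF3, a stress-induced repressor, stood at 121, 121 and 121 CPM in control and 63.4, 63.6 and 64.2 CPM with MYC, a fall of 1.90-fold, or 1.95-fold after the offset (edgeR adjusted p = 3.01e-06 and 1.14e-07). JUN fell 2.52-fold (edgeR adjusted p = 3.56e-06), or 1.94-fold after the offset, while the call for FOS, from 1.94 ± 0.199 CPM, ended with it.

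Of 11 metabolic enzymes, 9 fell and 2 rose, and 9 and 1 after the offset. Most of them serve serine, one-carbon or proline metabolism, and the list also holds GPT2, an alanine transaminase, PCK2, and BCAT1, a branched-chain transaminase and 1 of the 2 that rose in the group-only fit. The mitochondrial PEP carboxykinase PCK2 stood at 292, 306 and 299 CPM in control and 139, 118 and 94.1 CPM with MYC, a fall of 2.57-fold, or 1.56-fold after the offset (edgeR adjusted p = 3.73e-05 and 7.97e-06). ALDH18A1, which starts proline synthesis, went the other way, at 74.3, 73.8 and 74.4 CPM in control and 132, 128 and 122 CPM with MYC, a rise of 1.72-fold, or 1.66-fold after the offset (edgeR adjusted p = 1.01e-05 and 4.02e-07). Of 9 tested amino acid transporters 6 fell and 0 rose; after the offset 7 fell and 1 rose. The neutral amino acid transporter SLC1A4 fell from 484 ± 13.0 to 277 ± 21.9 CPM (SD, n = 3 each), 1.75-fold, or 1.67-fold after the offset (edgeR adjusted p = 3.12e-05 and 1.79e-06). Of 12 tRNA synthetases 6 fell and 2 rose, and 10 fell and 1 rose after the offset. Over all genes tested, 32.1% were called lower and 28.8% higher, and 28.9% and 29.6% after the offset. WARS1, for tryptophan, stood at 678, 724 and 711 CPM in control and 431, 421 and 405 CPM with MYC, a fall of 1.68-fold, or 1.78-fold after the offset. GARS1, for glycine, fell 1.29-fold, or 1.49-fold after the offset, and LARS1, for leucine, rose 1.35-fold, or 1.15-fold after the offset (edgeR adjusted p = 0.000913 and 0.000638 without it).

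Of 20 tested stress, death and secreted targets, 17 fell and 1 rose in both fits. Over all genes tested, 32.1% were called lower and 28.8% higher, and 28.9% and 29.6% after the offset. GDF15, a stress hormone induced by ATF4 and CHOP, stood at 4.81, 5.28 and 4.70 CPM in control and 1.25, 1.08 and 1.18 CPM with MYC, a fall of 4.30-fold, or 2.55-fold after the offset (edgeR adjusted p = 3.64e-06 and 1.53e-05). GADD45A, a stress-induced growth arrest gene, went from 26.0 ± 1.28 to 7.96 ± 0.580 CPM (SD, n = 3 each), 3.24-fold, or 1.51-fold after the offset. ERO1A, an oxidase of the endoplasmic reticulum that CHOP is known to induce, was the one that rose, at 62.4, 54.3 and 57.8 CPM in control and 78.6, 82.9 and 82.2 CPM with MYC, 1.40-fold (edgeR adjusted p = 0.000293) and 1.18-fold after the offset.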

How the data were processed

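RNA was purified on columns and poly-A enriched, per the labels' protocols, and the library kit named does not keep strand, so a gene and its antisense partner share reads. The submitters' processing notes name cutadapt, TopHat2 and GRCh37; their versions and the gene models used are not stated there or in the other sources used. The deposited RSEM tables hold, per the file headers, an expected count (estimated reads per gene, not scaled) and a TPM, which the authors' software scaled by length and depth. The deposited effective length, in bases, served only in 1 alternative. Each file holds 1 sample.

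Of 57820 gene rows, 51996 matched a symbol (98.35% of counts), and all 33 members did; TXNIP of the further lists did not. Expected counts were rounded, then tested by edgeR 4.0.16 (R 4.3.3) with its default filter, TMM factors, the group as the only term, the quasi-likelihood F test and Benjamini-Hochberg adjustment over 17679 genes, and called under 0.05. SEs derive from the F statistic. On counts simulated for these 17679 genes and this comparison, the test recovered 57.6% of 66 genes changed 1.5-fold, 80.3% of 66 changed 2-fold and 98.4% of 64 changed 4-fold, and 13 of 167 calls were false. Few genes were changed in this simulation, and it held no GC trend. In the data 32.1% of genes were called lower and 28.8% higher, so these rates need not hold there.

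For the GC offset, a loess curve (span 0.4) of log2 CPM against GC content was removed in every library, and TMM factors were recomputed. GC content is the mean over all GENCODE 29 transcripts of the gene, matched by transcript id, not over those the cells express. Promoters came from RefSeq on GRCh38.p14, and no coordinates of the 2 builds were mixed. Alternatives were RLE factors, total counts, DESeq2 1.42.0, limma 3.58.1 on log2(TPM + 1) and log2(TPM + 0.1), no filter, a mean CPM of at least 5, a length offset, the GC offset, a replicate block, and each library left out. All 33 members could be named, and from each further list up to 3 called genes per direction by smallest adjusted p, of which some are left out for length. The members and lists were chosen with earlier results of these data known. The error given is the spread between libraries, not a counting interval.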

Additional observations from a re-analysis of the deposited data

How the results depend on the processing

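Over the 23 alternatives, 19 to 21 members were called lower and 5 to 7 higher. Of all genes tested, 32.1% were lower and 28.8% higher in the group-only fit, and 28.9% and 29.6% after the GC offset. The median log2 fold change of all members (-0.61) was -0.40 after the GC offset, -0.52 with the effective length offset, -0.56 on log2(TPM + 1) and -0.57 on log2(TPM + 0.1). For the ATF4 arm (-1.07) it was -0.64, and -1.15 and -1.17 on the 2 TPM scales. For eIF2alpha and eIF2B (0.46) it was 0.29 after the GC offset, 0.48 with RLE factors, 0.43 without the filter, and 0.38 and 0.39 on the TPM scales. For the kinases (0.19) it was -0.039 after the GC offset and 0.27 with the length offset. With each library left out in turn, the medians ran from -0.64 to -0.60 for all members, -1.13 to -1.0 for the ATF4 arm, 0.42 to 0.46 for eIF2alpha and eIF2B and 0.14 to 0.22 for the kinases. With the GC offset as well, they ran from -0.42 to -0.38, -0.66 to -0.57, 0.26 to 0.30 and -0.060 to -0.032.

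The sign turned for 7 members. After the GC offset, log2 fold changes were -0.083 for EIF2AK4, -0.19 for PPP1R15B, 0.10 for ATF4, 0.27 for CEBPB and 0.065 for CHAC1. PPP1R15B was also at -0.023 and -0.024 on the TPM scales and at -0.0035 without the filter. With a library left out, with or without the GC offset, values ran from -0.026 to 0.29 for EIF2AK2, -0.11 to 0.14 for EIF2AK4, -0.027 to 0.11 for EIF2B2, -0.21 to 0.030 for PPP1R15B, -0.15 to 0.13 for ATF4, -1.39 to 0.37 for CEBPB and -1.24 to 0.075 for CHAC1. The GC offset removes the trend by construction; no other cause of these changes was tested.

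Same-numbered control and MYC samples correlated at -0.05, 0.08 and 0.11 in their deviations from the group means. Not every sample correlated best with its own number. These few values cannot decide whether same-numbered samples share a day or batch, which the labels do not say. With the replicate block, 19 members were lower and 6 higher, with a median of -0.61. With the replicate block and the GC offset, the counts were 19 and 5 and the medians -0.40 for all members, -0.64 for the ATF4 arm, 0.29 for eIF2alpha and eIF2B and -0.039 for the kinases. In that fit EIF2AK4 was at -0.083, PPP1R15B at -0.19, ATF4 at 0.10, CEBPB at 0.26 and CHAC1 at 0.065. With these depths only NUPR1, at 1 to 15 counts, was too low to test.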

Other observations

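The other arms of the unfolded protein response, which share stress of the endoplasmic reticulum with PERK, had median changes closer to 0 than the ATF4 arm. Of 16 chaperone and degradation genes of the ATF6 type, 7 were lower and 2 higher (median log2 fold change -0.11), and 8 lower and 2 higher after the GC offset (-0.15). Of 18 genes of the IRE1 and XBP1 arm, 9 were lower and 2 higher (-0.15), and 12 lower and 2 higher after the offset (-0.24). Over all genes tested, 32.1% were lower and 28.8% higher, and 28.9% and 29.6% after the offset. No test of the difference between these lists and the ATF4 arm was run. Some further lists of the ATF4 pathway also had medians near 0. Without and with the offset, medians were -0.16 and -0.18 for tRNA synthetases and 0.20 and 0.09 for upstream regulators. They were -0.49 and -0.12 for partner factors, -0.48 and -0.46 for metabolic enzymes, and -0.76 and -0.52 for amino acid transporters. Stress, death and secreted targets had -0.89 and -0.61, and all further lists pooled had -0.35 and -0.40. The sensor gene ERN1, which encodes IRE1, stood at 431, 422 and 438 CPM in control and 185, 190.5 and 171 CPM with MYC, a fall of 2.36-fold, or 2.29-fold after the offset (edgeR adjusted p = 2.09e-06 and 1.02e-07). It thus moved the same way as EIF2AK3 in both fits. DNAJB9, a chaperone induced by XBP1, fell from 110.1 ± 12.0 to 67.1 ± 1.56 CPM (SD, n = 3 each), 1.64-fold, or 1.89-fold after the offset (edgeR adjusted p = 0.000108 and 1.14e-06). In the ATF6-type list, 5 genes were lower in both fits and 1 was higher in both. DERL3 fell 2.73-fold and SYVN1 1.94-fold (edgeR adjusted p = 1.67e-05 and 8.41e-05), or 1.49-fold and 1.44-fold after the offset. PDIA3, a disulfide isomerase for glycoproteins, rose from 107 ± 7.64 to 197 ± 4.55 CPM, 1.84-fold, or 1.72-fold after the offset (edgeR adjusted p = 1.45e-05 and 3.86e-06). SDF2L1, with 66.2% GC, was called lower without the offset (-1.58) and not with it (0.01).

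PPP1CA, a catalytic subunit of the phosphatase that the PPP1R15 cofactors recruit, was called in opposite directions: -0.58 ± 0.12 (SE, edgeR adjusted p = 0.003) in the group-only fit and 0.27 ± 0.05 (edgeR adjusted p = 0.000793) after the GC offset. No direction is given for it.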
